A study of Aedes albopictus with 4 samples.

Results

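The genes described here are those of fatty acid oxidation and lipid carriage in larvae of Aedes albopictus, the Asian tiger mosquito. They were chosen by product name in the deposited table of normalized counts, as every gene named for an acyl-CoA dehydrogenase, an enoyl-CoA, hydroxyacyl-CoA or 3-ketoacyl-CoA enzyme, carnitine, an acyl-CoA synthetase, a long-chain-fatty-acid--CoA ligase, the trifunctional enzyme, an acyl-coenzyme A oxidase, apolipophorin or a fatty acid-binding protein. The rule used names and no measured value, and it found 41 of 25320 genes. All 41 had enough counts to be tested. mRNA of whole 4th instar larvae had been sequenced at 72 h in 2 groups of 2 libraries each. The control group received no treatment. The diquat group was exposed to the herbicide diquat, a redox-cycling bipyridyl, at 1/5 of its LC50, the median lethal concentration. The sources used here name no strain, sex or number of larvae per library. Both groups share the stage, the tissue and the time.

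Animals burn fatty acids in steps. An acyl-CoA synthetase joins the fatty acid to coenzyme A, carnitine palmitoyltransferases carry long chains into the mitochondrion, and a dehydrogenase, a hydratase, a second dehydrogenase and a thiolase then shorten the chain to acetyl-CoA. Peroxisomes shorten chains by a related route that opens with an acyl-CoA oxidase, which passes electrons to oxygen and forms hydrogen peroxide. In insects the fat body holds the lipid stores, and lipophorin, built on apolipophorins, carries lipid through the haemolymph to muscle and other tissues.

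More of these genes were higher than lower with diquat, and the differences were small. In limma, 26 of the 41 genes rose (63.4%), 5 fell (12.2%) and 10 did not pass an adjusted p of 0.05, with a median log2 fold change of 0.20. Among all 17992 tested genes 48.8% passed, 26.7% higher and 22.0% lower, with a median of -0.0028. The lipid genes are abundant, and among the 9620 tested genes with at least the mean of the lowest of them (266 normalized counts) 71.1% passed, 41.0% higher and 30.1% lower, with a median of 0.08. The share of lipid genes that passed in either direction, 75.6%, was thus near that of genes above this floor, which does not match abundance gene by gene. No lipid gene reached 2-fold, the largest change being 1.75-fold, and 26 of the 31 calls were under 1.5-fold. At 2-fold, 5.15% of all tested genes passed. The diquat libraries lay on one side of both controls in 39 of the 41 genes, against 73.0% of all tested genes and 86.0% of those above the floor. With a constant variance prior in limma, 14 of the 41 genes rose and 2 fell, against 18.1% and 15.2% of all tested genes (33.3% in either direction). Under quantile normalization 25 rose and 9 fell, against 23.8% and 22.8% (46.6%), and the median of the 41 was 0.11. edgeR on the recovered reads gave 26 rises and 6 falls, against 26.6% and 22.5% (49.1%), and DESeq2 gave 25 and 5, against 23.3% and 19.3% (42.6%). With each library's trend on genomic span removed, 25 rose and 6 fell, against 27.4% and 17.0% (44.4%).

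**Figure D1:**
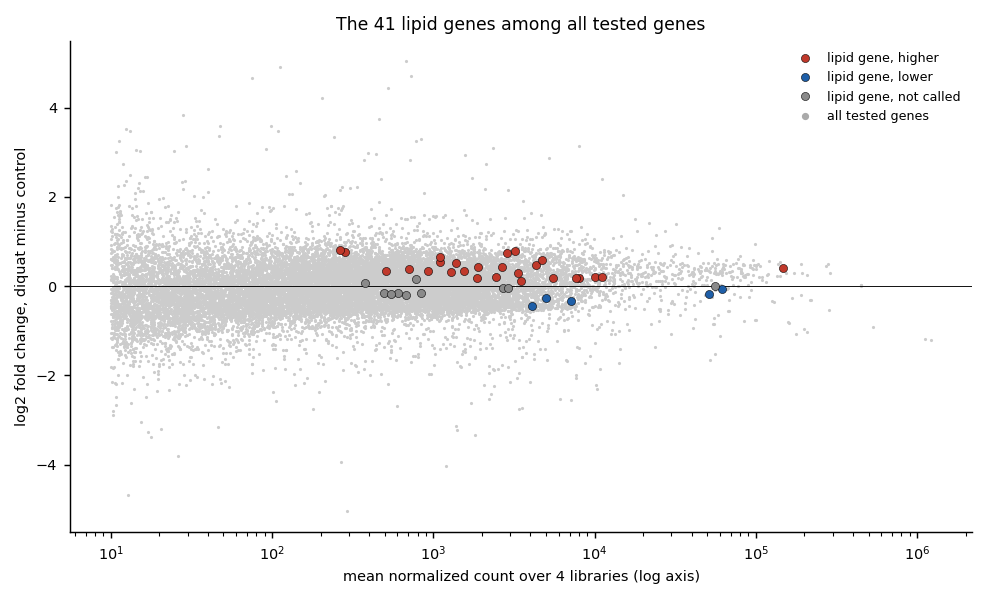
Each dot is 1 tested gene, by its mean normalized count over the 4 libraries (log axis) and its log2 fold change, diquat minus control; lipid genes are drawn large and coloured by their limma call. The lipid genes lie between -0.46 and 0.80, where all tested genes span -5.03 to 5.06.

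**Figure D2:**
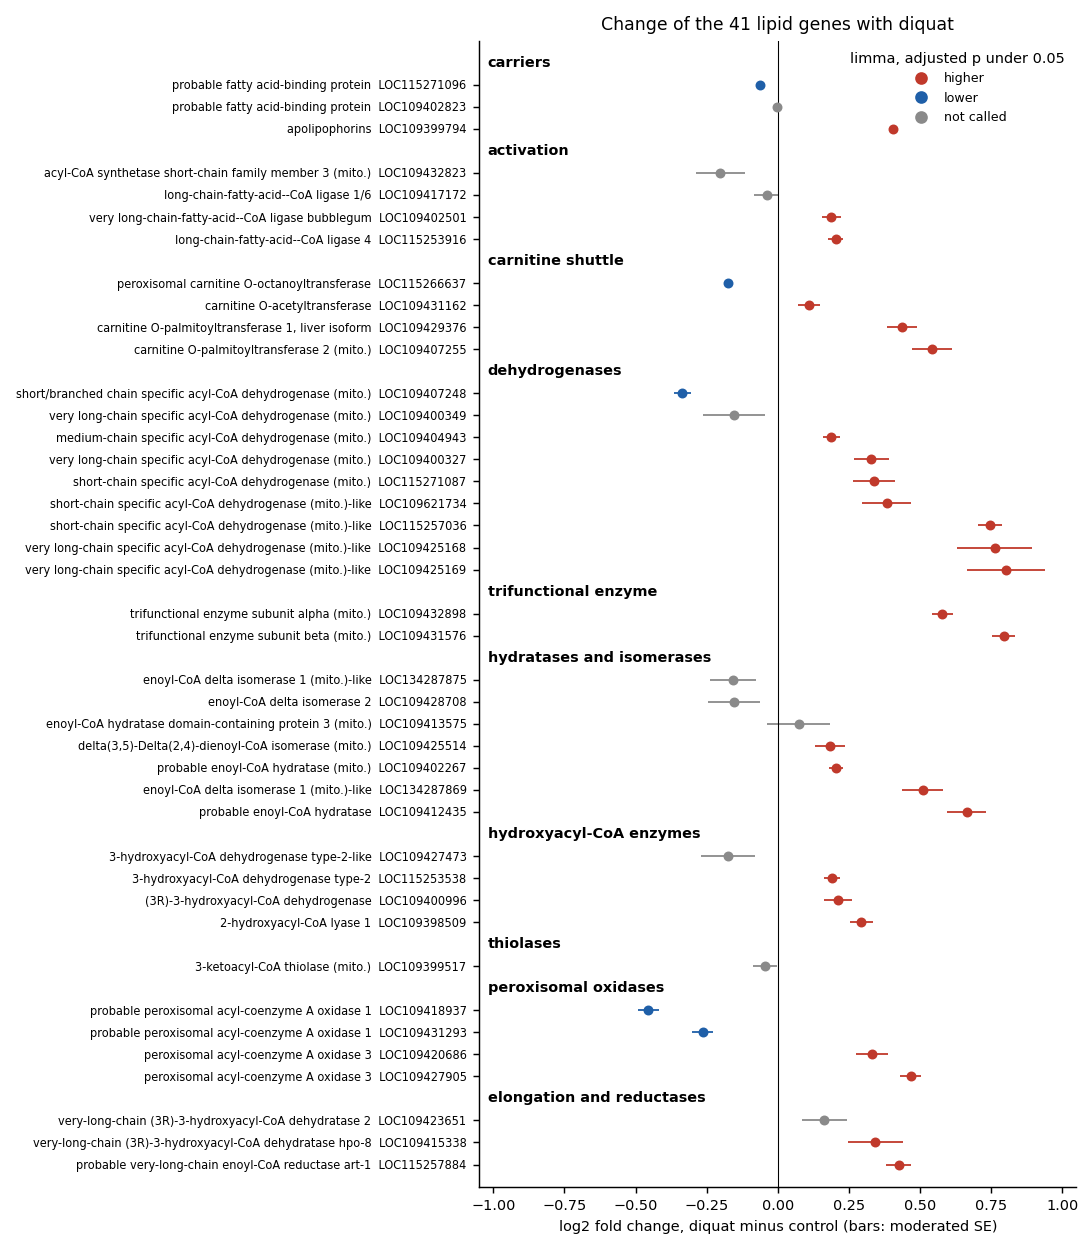
The log2 fold change of each of the 41 lipid genes, diquat minus control, is drawn as a point with its moderated SE and coloured by its limma call, in groups by role. Both trifunctional subunits and 7 of 9 acyl-CoA dehydrogenases lie to the right of 0 with a call, and the peroxisomal oxidases lie on both sides.

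The 4 libraries held 34502559 to 48383964 counted reads, and both diquat libraries were deeper than both controls. With reads thinned to the depth of the shallowest library, an alternative chosen after seeing the data, the same numbers of lipid genes were called, 26 higher and 5 lower. Lipid genes had from 158 to 197084 reads in a library. Nothing in the sources used here says that the 2 libraries of a group came from separate batches of larvae. The spread between these libraries may therefore be technical. A gene's SE and p-value in limma rest only in part on its own spread, and borrow the rest from tested genes of similar level. With a constant variance prior, which borrows the same spread at every level, 16 of the 31 calls remained. Counts are not divided by transcript length, and levels of different genes are therefore not compared. In RNA of whole larvae, fewer cells of a type and less RNA per cell cannot be told apart.

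The product named apolipophorins (LOC109399794), the precursor of the structural proteins of lipophorin, rose in both diquat libraries. It had 126126 and 126803 normalized counts in control and 166416 and 168208 in diquat libraries. Diquat libraries lay above controls by a wide margin relative to the gap between replicates, at a log2 fold change of 0.40 ± 0.01 (SE, n = 2 libraries each; limma adjusted p = 4e-22), a ratio of means of 1.32.

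Fatty acid-binding proteins, which hold fatty acids in the cytosol, did not share that rise. The first of 2 genes with this name (LOC109402823) had 56166 and 55387 normalized counts in control and 55896 and 55449 in diquat libraries, with overlapping groups, and its log2 fold change was -0.0027 ± 0.01 (SE, n = 2 libraries each; limma adjusted p = 0.89). Quantile normalization gave it -0.20 (adjusted p = 3.73e-11), so whether it stayed level depends on the scaling. The second (LOC115271096) had 63344 and 62086 normalized counts in control and 60515 and 59625 in diquat libraries and fell slightly, by 0.06 on the log2 scale (limma adjusted p = 0.000468). Its call was lost without diquat replicate 2 (adjusted p = 0.0529) and with a constant variance prior (0.421), and quantile normalization gave it -0.26. It lies inside LOC134291783 in the AalbF5 annotation, an undescribed gene with a similar count, and reads of the pair were not separated. Within a library the scaling cancels from a ratio of 2 genes, and such ratios are given for pairs chosen after their values were seen, as descriptions without a test. The ratio of apolipophorins to the first fatty acid-binding protein was 2.25 and 2.29 in control against 2.98 and 3.03 in diquat libraries.

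**Figure D3:**
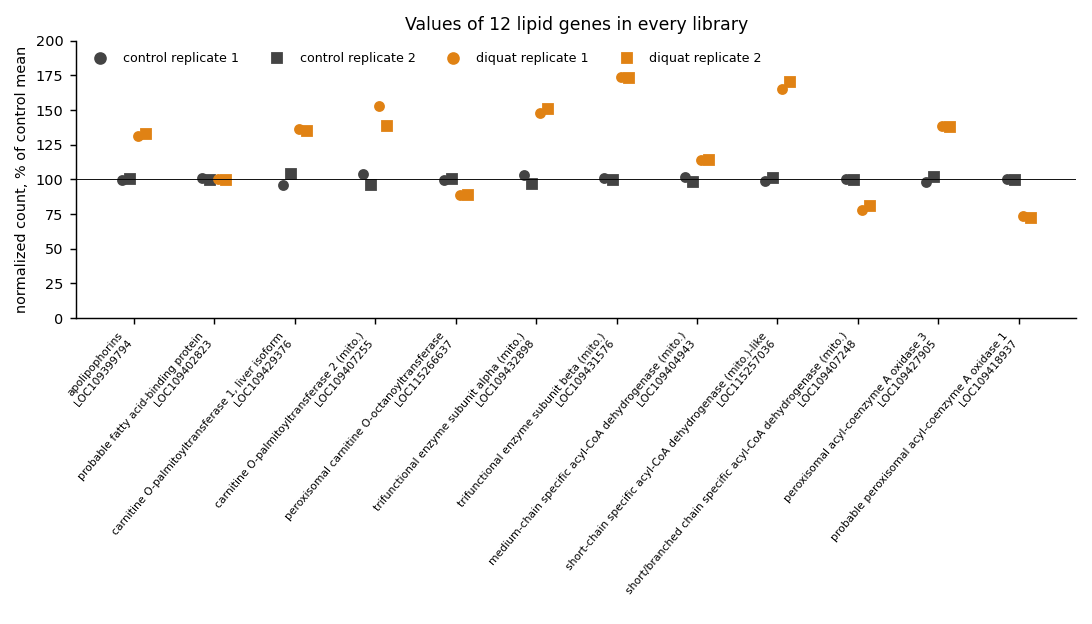
Normalized counts of 12 lipid genes in each of the 4 libraries are shown as a percentage of the gene's control mean, with controls in dark grey, diquat in orange, circles for replicate 1 and squares for replicate 2. Libraries of a group lie close together, above 100% with diquat for apolipophorins, the palmitoyltransferases and the trifunctional subunits, and below it for octanoyltransferase, the short/branched chain dehydrogenase and an acyl-coenzyme A oxidase 1 gene.

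Of 4 genes that activate fatty acids, 2 rose and 2 did not pass. For comparison, 26.7% of all tested genes were higher, and 41.0% of those above the floor. Long-chain-fatty-acid--CoA ligase 4 (LOC115253916) had 9217 and 9530.1 normalized counts in control and 10744 and 10841 in diquat libraries and rose by 0.20 ± 0.03 on the log2 scale (SE, n = 2 libraries each; limma adjusted p = 2.95e-07). Bubblegum (LOC109402501), the ligase of very long chains first named in Drosophila, had 5203 and 5184 normalized counts in control and 5774 and 6061 in diquat libraries and its log2 fold change was 0.19 ± 0.03 (limma adjusted p = 3.77e-05). Both diquat libraries lay above both controls in each of these genes, yet both calls were lost with a constant variance prior (adjusted p = 0.0724 and 0.0933). The sizes of both rises depend on the scaling: quantile normalization gave 0.07 and 0.11, and removal of the span trend gave 0.38 and 0.39. Bubblegum overlaps a gene for a leucine-rich repeat protein (LOC109402509) that rose by 0.15. That gene averaged 5280 normalized counts, a similar level, and reads of the pair were not separated. The ligase annotated as isoforms 1 and 6 (LOC109417172) had a log2 fold change of -0.04 (limma adjusted p = 0.499), and this turned to 0.13 (adjusted p = 0.0158) after each library's trend on genomic span was removed. Acyl-CoA synthetase short-chain family member 3 (LOC109432823), named as mitochondrial, had 687 and 770.01 normalized counts in control and 637 and 627 in diquat libraries. Its log2 fold change of -0.20 ± 0.09 (SE, n = 2 libraries each) did not pass in limma (adjusted p = 0.0536) and passed in edgeR (0.0437) and without control replicate 1 (0.0126).

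Both palmitoyltransferases of the carnitine shuttle rose. Carnitine O-palmitoyltransferase 1 (LOC109429376), the entry step for long chains on the outer mitochondrial membrane, had 1552 and 1673 normalized counts in control and 2195 and 2170.4 in diquat libraries, for a log2 fold change of 0.44 ± 0.05 (SE, n = 2 libraries each; limma adjusted p = 1.23e-07). Carnitine O-palmitoyltransferase 2 (LOC109407255), its partner on the inner membrane, had 927 and 852 normalized counts in control and 1359 and 1234 in diquat libraries, for a log2 fold change of 0.54 ± 0.07 (limma adjusted p = 3.95e-07). In neither gene did the groups overlap.

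The other carnitine acyltransferases behaved otherwise. Peroxisomal carnitine O-octanoyltransferase (LOC115266637), which hands shortened chains from the peroxisome to carnitine, had 54283 and 54891 normalized counts in control and 48337 and 48433 in diquat libraries and fell by 0.17 on the log2 scale, with an SE of 0.01 (n = 2 per group; limma adjusted p = 4.39e-11, and 0.0866 with a constant variance prior). Quantile normalization gave it -0.38, and removal of the span trend -0.08. Carnitine O-acetyltransferase (LOC109431162), which buffers acetyl-CoA in the mitochondrion, had 3458 and 3314 in controls and 3604 and 3702 with diquat. Its rise of 0.11 (limma adjusted p = 0.0259) is the least secure of the group: the call was lost without control replicate 2 (adjusted p = 0.158), without diquat replicate 1 (0.0692), without diquat replicate 2 (0.199), in DESeq2 (0.111) and with a constant variance prior (0.235), and with the span trend removed the value was 0.0039. In AalbF5 this gene lies inside the undescribed gene LOC109408938, which averaged 9121 normalized counts and rose by 0.17 (limma adjusted p = 6.43e-06). Reads of the pair were not separated. Per library, the ratio of palmitoyltransferase 2 to octanoyltransferase counts was 0.0171 and 0.0155 in control against 0.0281 and 0.0255 in diquat libraries, a change of 1.64 times.

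Acyl-CoA dehydrogenases carry out the first step of each mitochondrial round and pass electrons to the electron transfer flavoprotein. Of the 9 genes, 7 rose and 1 fell, and the remaining gene did not pass. For comparison, 26.7% of all tested genes were higher and 22.0% lower. Above the floor set by the lowest lipid gene the shares were 41.0% and 30.1%. The name gives the chain length each enzyme prefers, and the rises covered short, medium and very long chains.

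Short-chain specific acyl-CoA dehydrogenase is annotated at 3 genes, all of which rose. The largest change was in LOC115257036, which had 2113 and 2158 normalized counts in control and 3532 and 3633 in diquat libraries, and its log2 fold change was 0.75 ± 0.04 (SE, n = 2 libraries each; limma adjusted p = 8.55e-14). Its direct neighbour LOC115271087 had 822 and 823 normalized counts in control and 989.6 and 1095 in diquat libraries, for a log2 fold change of 0.34 ± 0.07 (limma adjusted p = 0.000387). The third, LOC109621734, had 562 and 660.5 in controls and 794 and 795 with diquat, for a log2 fold change of 0.38 ± 0.09 (limma adjusted p = 0.000681). Diquat libraries were above controls in every case, and the calls of the latter pair were lost with a constant variance prior (adjusted p = 0.0522 and 0.0734), and their values were 0.18 and 0.22 with the span trend removed. The ratio of the first neighbour to the second was 2.57 and 2.62 in control against 3.57 and 3.32 in diquat libraries.

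The medium-chain enzyme (LOC109404943) had 7627 and 7376 normalized counts in control and 8544 and 8555 in diquat libraries. The rise, 0.19 ± 0.03 on the log2 scale (SE, n = 2 libraries each; limma adjusted p = 3.43e-06), was a ratio of means of 1.14, and its call was lost with a constant variance prior (adjusted p = 0.0825). Under quantile normalization the value was 0.07.

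The 4 genes of the very long-chain enzyme, the dehydrogenase of the inner mitochondrial membrane, stand side by side in AalbF5 in the order LOC109400327, LOC109400349, LOC109425169 and LOC109425168, with no gene between them. LOC109425169 had 189 and 197 normalized counts in control and 318 and 358 in diquat libraries and its log2 fold change was 0.80 ± 0.14 (SE, n = 2 libraries each; limma adjusted p = 1.88e-05), the largest change among the 41 lipid genes. Next to it, LOC109425168 had 206 and 215 normalized counts in control and 381 and 335 in diquat libraries, for a log2 fold change of 0.76 ± 0.13 (limma adjusted p = 2.43e-05). These 2 genes had the fewest reads of the 41, and their SE is accordingly wide. LOC109400327 had 1166 and 1113 in controls and 1422 and 1439 with diquat and rose by 0.33 ± 0.06 (limma adjusted p = 7.2e-05). LOC109400349 did not follow: its counts of 495 and 537 in controls and 524 and 409.7 with diquat overlapped between groups, at a log2 fold change of -0.15 ± 0.11 (limma adjusted p = 0.26) that turned to 0.02 without diquat replicate 2. The ratio of LOC109425169 to LOC109425168 was 0.919 and 0.917 in control against 0.834 and 1.07 in diquat libraries, with overlapping groups. The ratio of LOC109425169 to LOC109400349 was 0.382 and 0.367 in control against 0.607 and 0.875 in diquat libraries, with groups apart. The sources used here do not say how reads of similar copies were divided among neighbours.

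The enzyme of short and branched chains (LOC109407248), which acts on the acyl-CoA formed from isoleucine in mammals, was the dehydrogenase that fell. It had 7931 and 7911 normalized counts in control and 6151 and 6397 in diquat libraries, a ratio of means of 0.792. The log2 fold change was -0.34 ± 0.03 (SE, n = 2 libraries each; limma adjusted p = 4.75e-10). Within each library, the ratio of the most changed short-chain gene (LOC115257036) to this gene was 0.266 and 0.273 in control against 0.574 and 0.568 in diquat libraries, so the balance between the pair moved 2.12 times.

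The trifunctional enzyme carries out the later steps for long chains on the inner mitochondrial membrane, with hydratase and dehydrogenase activity on its alpha subunit and thiolase activity on its beta subunit. Both subunits rose, and both calls held under all 18 alternatives. The alpha subunit (LOC109432898) had 3911 and 3659 normalized counts in control and 5601 and 5703 in diquat libraries, for a log2 fold change of 0.58 ± 0.04 (SE, n = 2 libraries each; limma adjusted p = 6.73e-13). The beta subunit (LOC109431576) had 2369 and 2334 normalized counts in control and 4094 and 4066 in diquat libraries, for a log2 fold change of 0.79 ± 0.04 (limma adjusted p = 6.28e-15). The rise was larger in the beta subunit, whose ratio to the alpha subunit was 0.606 and 0.638 in control against 0.731 and 0.713 in diquat libraries.

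Enoyl-CoA hydratases and isomerases, which add water to the double bond or move it into place, gave 4 rises among 7 genes and no fall. For comparison, 26.7% of all tested genes were higher and 22.0% lower, and 41.0% and 30.1% of those above the floor. Probable enoyl-CoA hydratase (LOC109412435) had 836 and 865 normalized counts in control and 1292 and 1407 in diquat libraries, for a log2 fold change of 0.66 ± 0.07 (SE, n = 2 libraries each; limma adjusted p = 6.85e-09). The hydratase named as mitochondrial (LOC109402267) had 10464 and 10246 normalized counts in control and 11957 and 11922 in diquat libraries, for a log2 fold change of 0.21 ± 0.02 (limma adjusted p = 8.86e-08). Groups did not overlap in either gene, but the call of the latter was lost under quantile normalization (adjusted p = 0.105, log2 fold change 0.04) and with a constant variance prior (0.066).

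A pair of genes named enoyl-CoA delta isomerase 1, with 2 genes between them in AalbF5, gave different calls. LOC134287869 had 1026 and 1251 in controls and 1561 and 1667 with diquat and rose by 0.51 ± 0.07 on the log2 scale (SE, n = 2 libraries each; limma adjusted p = 1.67e-06, and 0.0633 with a constant variance prior). LOC134287875 had 941 and 828 in controls and 759.6 and 826 with diquat and its log2 fold change of -0.16 ± 0.08 did not pass (limma adjusted p = 0.113), although it did without control replicate 2 (0.0156) and under quantile normalization (0.0441). Their ratio was 1.09 and 1.51 in control against 2.06 and 2.02 in diquat libraries. LOC134287875 overlaps a gene for a dynein regulatory complex subunit 3-like protein (LOC134287874). That gene averaged 1042 normalized counts with a log2 fold change of -0.13, and reads of the overlapping genes were not separated. The dienoyl-CoA isomerase (LOC109425514), an enzyme for unsaturated chains, rose by 0.18 ± 0.05 (limma adjusted p = 0.00548), a call lost without diquat replicate 2 (adjusted p = 0.0931) and with a constant variance prior (0.118). Neither enoyl-CoA delta isomerase 2 (LOC109428708, log2 fold change -0.15) nor enoyl-CoA hydratase domain-containing protein 3 (LOC109413575, 0.07) passed (limma adjusted p = 0.171 and 0.617), and the latter value turned to -0.02 with the span trend removed.

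Genes with hydroxyacyl-CoA in the name, other than the elongation enzymes, gave 3 rises among 4. For comparison, 26.7% of all tested genes were higher, and 41.0% of those above the floor. 2-Hydroxyacyl-CoA lyase 1 (LOC109398509), which in mammals cleaves 2-hydroxy fatty acids and alpha-oxidized branched chains in the peroxisome, had 3076 and 2972 normalized counts in control and 3647 and 3763 in diquat libraries, for a log2 fold change of 0.29 ± 0.04 (SE, n = 2 libraries each; limma adjusted p = 1.03e-06), or 0.18 with the span trend removed. (3R)-3-hydroxyacyl-CoA dehydrogenase (LOC109400996), a gene model marked as low quality in its product name, had 2268 and 2288 in controls and 2516 and 2765 with diquat and rose by 0.21 (limma adjusted p = 0.000819), a call lost without diquat replicate 2 (adjusted p = 0.0716) and with a constant variance prior (0.116), and its value was 0.13 with the span trend removed. 3-Hydroxyacyl-CoA dehydrogenase type-2 (LOC115253538), an enzyme of isoleucine breakdown and a part of mitochondrial RNase P in mammals, rose by 0.19 (limma adjusted p = 2.67e-06), but a nested TAR DNA-binding protein 43 gene (LOC115256405, log2 fold change 0.23) held 65.8% of its value. The call was lost with a constant variance prior (adjusted p = 0.0751), and quantile normalization gave 0.08. The type-2-like gene (LOC109427473), which lies inside a fragile X ribonucleoprotein gene (LOC115269373, log2 fold change -0.24), had a log2 fold change of -0.17 that did not pass (limma adjusted p = 0.132) and passed under quantile normalization (0.0363) and with the span trend removed (0.0309).

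The thiolase that ends the round on shorter chains, mitochondrial 3-ketoacyl-CoA thiolase (LOC109399517), had 2942 and 3001 normalized counts in control and 2862 and 2897 in diquat libraries. Diquat libraries lay just below controls, and the log2 fold change of -0.05 ± 0.04 (SE, n = 2 libraries each) did not pass (limma adjusted p = 0.399); it turned to 0.01 with the span trend removed. The beta subunit of the trifunctional enzyme, which has the same activity on long chains, moved away from it: the ratio of beta subunit (LOC109431576) to thiolase was 0.805 and 0.778 in control against 1.43 and 1.40 in diquat libraries.

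The 4 peroxisomal acyl-coenzyme A oxidases divided by name, the pair named oxidase 3 rising and the pair named probable oxidase 1 falling. In mammals oxidase 1 acts on straight chains and oxidase 3 on branched ones; in mosquitoes the assignment rests on the annotation. Of the oxidase 3 genes, LOC109427905 had 3576 and 3702 normalized counts in control and 5052 and 5012 in diquat libraries, for a log2 fold change of 0.47 ± 0.04 (SE, n = 2 libraries each; limma adjusted p = 3.11e-11). The other, LOC109420686, had 1358 and 1393 normalized counts in control and 1731 and 1731 in diquat libraries, for a log2 fold change of 0.33 ± 0.06 (limma adjusted p = 1.78e-05). Both calls held under all 18 alternatives.

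Of the oxidase 1 genes, LOC109418937 had 4789 and 4728 normalized counts in control and 3519 and 3422 in diquat libraries and its log2 fold change was -0.46 ± 0.04 (SE, n = 2 libraries each; limma adjusted p = 7.39e-11), the largest fall among the 41 genes. LOC109431293 had 5533 and 5427 normalized counts in control and 4391 and 4743 in diquat libraries, for a log2 fold change of -0.26 ± 0.04 (limma adjusted p = 1.27e-06, and 0.0666 with a constant variance prior). In all 4 oxidase genes the groups were apart. The first of this pair overlaps a troponin C gene (LOC109407754) that moved the other way, with a log2 fold change of 0.51. The ratio of LOC109427905 to LOC109418937 was 0.747 and 0.783 in control against 1.44 and 1.46 in diquat libraries, and that of LOC109420686 to LOC109431293 was 0.245 and 0.257 in control against 0.394 and 0.365 in diquat libraries. Both ratios were higher in both diquat libraries than in both controls, and they carry no library scaling.

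**Figure D4:**
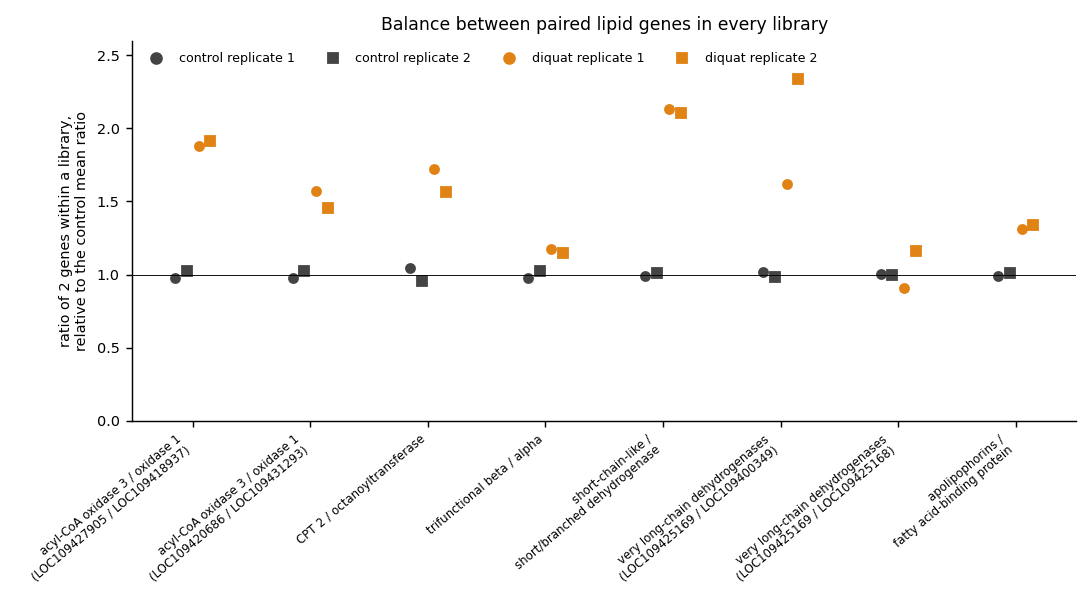
The ratio of normalized counts of 2 lipid genes within each library is drawn relative to its control mean, for 8 pairs chosen after their values were seen, with controls in dark grey and diquat in orange, circles for replicate 1 and squares for replicate 2. All pairs but the neighbours LOC109425169 and LOC109425168 have both diquat libraries apart from both controls.

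Product names also give a compartment for some of the genes. Of 19 genes named as mitochondrial, 13 rose and 1 fell, with a median log2 fold change of 0.33. Of 5 named as peroxisomal, 2 rose and 3 fell, with a median of -0.17. The remaining 17 genes gave 11 rises and 1 fall. Among all tested genes 26.7% were higher and 22.0% lower, and among those with at least the mean of the lowest lipid gene 41.0% and 30.1%. With 5 peroxisomal genes these counts are a description, and the difference between compartments was not tested. In AalbF5, 11 of the 41 genes overlap another gene, and these hold 5 of the rises and 4 of the 5 falls. Among the 30 without overlap, 21 rose and 1, the short/branched chain dehydrogenase, fell, with a median of 0.33. For 2 of the 4 the other gene was far lower: LOC134285407 averaged 46.9 normalized counts beside the octanoyltransferase, and LOC134291650 averaged 26.6 beside the oxidase 1 gene LOC109431293. For the others, the fatty acid-binding protein LOC115271096 and the oxidase 1 gene LOC109418937, the part of overlapping reads in the falls was not tested.

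Elongation enzymes of the endoplasmic reticulum, which build very long chains, entered by name only. Very-long-chain enoyl-CoA reductase art-1 (LOC115257884), the last step of the elongation cycle, had 2258 and 2266 normalized counts in control and 3073 and 2999.99 in diquat libraries, for a log2 fold change of 0.42 ± 0.04 (SE, n = 2 libraries each; limma adjusted p = 8.21e-09). It lies inside a long noncoding RNA gene (LOC134284084) whose own log2 fold change of 0.05 did not pass. Of 2 adjacent genes for 3-hydroxyacyl-CoA dehydratase, the step before, hpo-8 (LOC109415338) rose by 0.34 ± 0.10 (limma adjusted p = 0.0047), a call lost without diquat replicate 2 (adjusted p = 0.099), with the span trend removed (0.128) and with a constant variance prior (0.052). Dehydratase 2 (LOC109423651) had a log2 fold change of 0.16 and did not pass (limma adjusted p = 0.089).

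A list of 56 other genes, meant to cover lipid oxidation, storage, synthesis and transport, was set by product name, with earlier results of these data known. The name parts also took low-density lipoprotein receptor-related proteins, peptide hormone genes and a lysine methyltransferase of the electron transfer flavoprotein (LOC115265162). The methyltransferase was called higher at 0.26, and a nested gene held 40.8% of its value. Of the 56 genes, 32 rose, 5 fell and 19 did not pass, with a median log2 fold change of 0.20. The share called, 66.1%, may be read against the same 48.8% of all tested genes and 71.1% of abundant ones. By direction, 26.7% of all tested genes were higher and 22.0% lower, with a median of -0.0028. Among those above the floor 41.0% were higher and 30.1% lower, with a median of 0.08. With a constant variance prior 20 rose and 2 fell, against 18.1% and 15.2% of all tested genes. Under quantile normalization 8 fell, and with the span trend removed 2 fell, against 22.8% and 17.0% of all tested genes.

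Electron transfer flavoprotein takes electrons from the acyl-CoA dehydrogenases. Its alpha subunit (LOC109429328) had 5672 and 5784 normalized counts in control and 7375 and 7472 in diquat libraries, for a log2 fold change of 0.37 ± 0.03 (SE, n = 2 libraries each; limma adjusted p = 7.08e-11), or 0.21 with the span trend removed. The beta subunit (LOC109414609) and the ubiquinone oxidoreductase that receives its electrons (LOC109411128) rose by 0.23 and 0.32 (limma adjusted p = 3.59e-07 and 7.55e-05), but both calls were lost with a constant variance prior (adjusted p = 0.0597 and 0.0825), and the beta subunit was at 0.12 under quantile normalization and 0.09 with the span trend removed. The 2 genes named hydroxyacyl-coenzyme A dehydrogenase, the second dehydrogenase of the mitochondrial round, both rose by 0.43 (LOC109422205 and LOC115260380). The second of these lies inside the first and accounts for 64.4% of its value, and both lie inside an inositol polyphosphate multikinase gene (LOC115260379) that rose by 0.43, so they are not independent measurements. Isovaleryl-CoA dehydrogenase (LOC109420869), of leucine breakdown, rose by 0.35. Succinyl-CoA:3-ketoacid-coenzyme A transferase (LOC109409975), which uses ketone bodies, rose by 0.35, while hydroxymethylglutaryl-CoA lyase (LOC109420015), which makes them in mammals, did not pass (log2 fold change 0.07). Glutaryl-CoA dehydrogenase (LOC109405866) rose by 0.22, a call lost without diquat replicate 1 (limma adjusted p = 0.0567), with the span trend removed (0.284) and with a constant variance prior (0.125).

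Several genes of fat storage, mobilization and uptake rose. Lipid storage droplets surface-binding protein 1 (LOC109413900), a perilipin that coats the fat droplet and gates lipolysis in Drosophila, had 2448 and 2526 normalized counts in control and 3946 and 3993 in diquat libraries, for a log2 fold change of 0.67 ± 0.04 (SE, n = 2 libraries each; limma adjusted p = 2.27e-13). Its gene lies inside that of chloride channel protein 2 (LOC109421116), which rose by 0.18. Protein 2 of that family (LOC115264856) rose by 0.36. Hormone-sensitive lipase (LOC109399347), which cuts stored lipid, had 746 and 644 in controls and 1133 and 1109 with diquat, for a log2 fold change of 0.69 ± 0.08 (limma adjusted p = 3.63e-08). Acetyl-CoA carboxylase makes malonyl-CoA, the substrate of fatty acid synthesis and an inhibitor of carnitine palmitoyltransferase 1 in mammals. Its gene LOC109430541 had 2121 and 2026 in controls and 3569.9 and 3489.9 with diquat, for a log2 fold change of 0.77 ± 0.04 (limma adjusted p = 7.77e-14), and LOC134288350 rose by 0.61. The lipase and the first carboxylase gene are placed on no chromosome in AalbF5, so their overlaps are unknown. Of 2 genes for long-chain fatty acid transport protein 4, LOC109427035 rose by 0.82 and LOC109421754 did not pass (0.05), although it did with the span trend removed (0.22, limma adjusted p = 3.95e-05). Both acyl-coenzyme A thioesterases rose, by 0.57 (LOC115258186) and 0.52 (LOC109399418). The call of the latter was lost with a constant variance prior (limma adjusted p = 0.0802), and its value was 0.34 without control replicate 2.

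The largest rise of the 56 was in a gene named low-density lipoprotein receptor (LOC109405842), of the family that includes the lipophorin receptor of insects. It had 20784 and 20417 normalized counts in control and 38276 and 38542 in diquat libraries, and its log2 fold change was 0.90 ± 0.02 (SE, n = 2 libraries each; limma adjusted p = 3.29e-24). A nested long noncoding RNA gene (LOC134291301), which rose by 1.41, held 73.8% of that value, so the reads of the receptor itself were not measured apart. Among peroxisome genes, the import receptor for targeting signal 1 (LOC109399485) rose by 0.36, peroxisomal biogenesis factor 19 (LOC109621952), a chaperone of peroxisomal membrane proteins, by 0.52, and PEX13 (LOC109424531), of the import machinery, by 0.35. PEX16 (LOC109429722) rose by 0.25 (limma adjusted p = 0.0392), a call lost without control replicate 2 (0.473), without diquat replicate 1 (0.292), without diquat replicate 2 (0.0892), without a filter on low values (0.0747), under quantile normalization (0.188), with a constant variance prior (0.245) and in DESeq2 (0.145). The other 5 genes named as a peroxisomal membrane protein or biogenesis factor did not pass: peroxisomal biogenesis factor 3 (LOC109414183, 0.05), PEX14 (LOC109403058, 0.06), PMP34 (LOC115265400, 0.04), membrane protein 11C (LOC109423501, -0.06) and a PEX13-like gene (LOC109401187, -0.30). For the targeting signal 2 receptor (LOC109420874, log2 fold change 0.40), a nested arrestin homolog (LOC115270414, 0.53) accounted for 74.6% of the value. Peroxisomal multifunctional enzyme type 2 (LOC109428196), the step after acyl-CoA oxidase, fell by 0.09, a call lost without diquat replicate 2 (limma adjusted p = 0.101), with the span trend removed (0.139) and with a constant variance prior (0.281), and quantile normalization gave -0.24. Catalase (LOC109430890), which breaks down the hydrogen peroxide that the oxidases form, overlaps a long noncoding RNA gene (LOC134288293). That gene averaged 46210 normalized counts, and reads of the pair were not separated. Catalase had 48119 and 47011 in controls and 48253 and 48446 with diquat. Its log2 fold change of 0.02 did not pass (limma adjusted p = 0.192), and quantile normalization turned it to -0.17 (adjusted p = 1.19e-09). It passed as higher with the span trend removed (0.07) and without control replicate 1 (0.04). Of 5 genes named for adipokinetic hormone/corazonin-related peptide or its receptor, none rose and 2 receptor genes fell, LOC109428047 by 0.58 and LOC115253773 by 0.42, or -0.38 and -0.18 with the span trend removed. Low-density lipoprotein receptor-related protein 4 (LOC109428422) fell by 0.31, a call lost with the span trend removed (-0.13, limma adjusted p = 0.103) and with a constant variance prior (0.0599). Protein 1 of that family (LOC109623365) was called lower at -0.08 (limma adjusted p = 0.0114), but its direction depends on the processing: with the span trend removed it was called higher, at 0.28 (adjusted p = 4.07e-10). Its call was lost with a constant variance prior (0.292), without diquat replicate 1 (0.0799) and without diquat replicate 2 (0.0798), and quantile normalization gave -0.21.

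Further genes of the list completed these steps. Diacylglycerol O-acyltransferase 1 (LOC109418063), which makes triacylglycerol, rose by 0.29 (limma adjusted p = 0.000464). Acetyl-CoA acetyltransferase (LOC115253562), a thiolase of short chains, rose by 0.20 (limma adjusted p = 2.42e-09), but the call was lost with a constant variance prior (adjusted p = 0.0706) and the value was -0.0032 under quantile normalization. ATP-binding cassette sub-family D member 3 (LOC109403521), a peroxisomal importer of fatty acyl-CoA in mammals, rose by 0.25 (limma adjusted p = 0.00117, and 0.0727 with a constant variance prior), or 0.39 with the span trend removed. A gene annotated both as acyl-CoA-binding domain-containing protein 6 and as a mitochondrial RNA-binding protein (LOC115269546) rose by 0.69 (limma adjusted p = 6.59e-12). Neither sterol carrier protein 2 (LOC109429786, log2 fold change -0.0049) nor the homolog of the transcription factor HNF-4 (LOC109403694, 0.01), a regulator of fat oxidation genes in Drosophila, passed (limma adjusted p = 0.861 and 0.906). The first passed as lower under quantile normalization (-0.20) and the second as higher with the span trend removed (0.20).

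**Figure D5:**
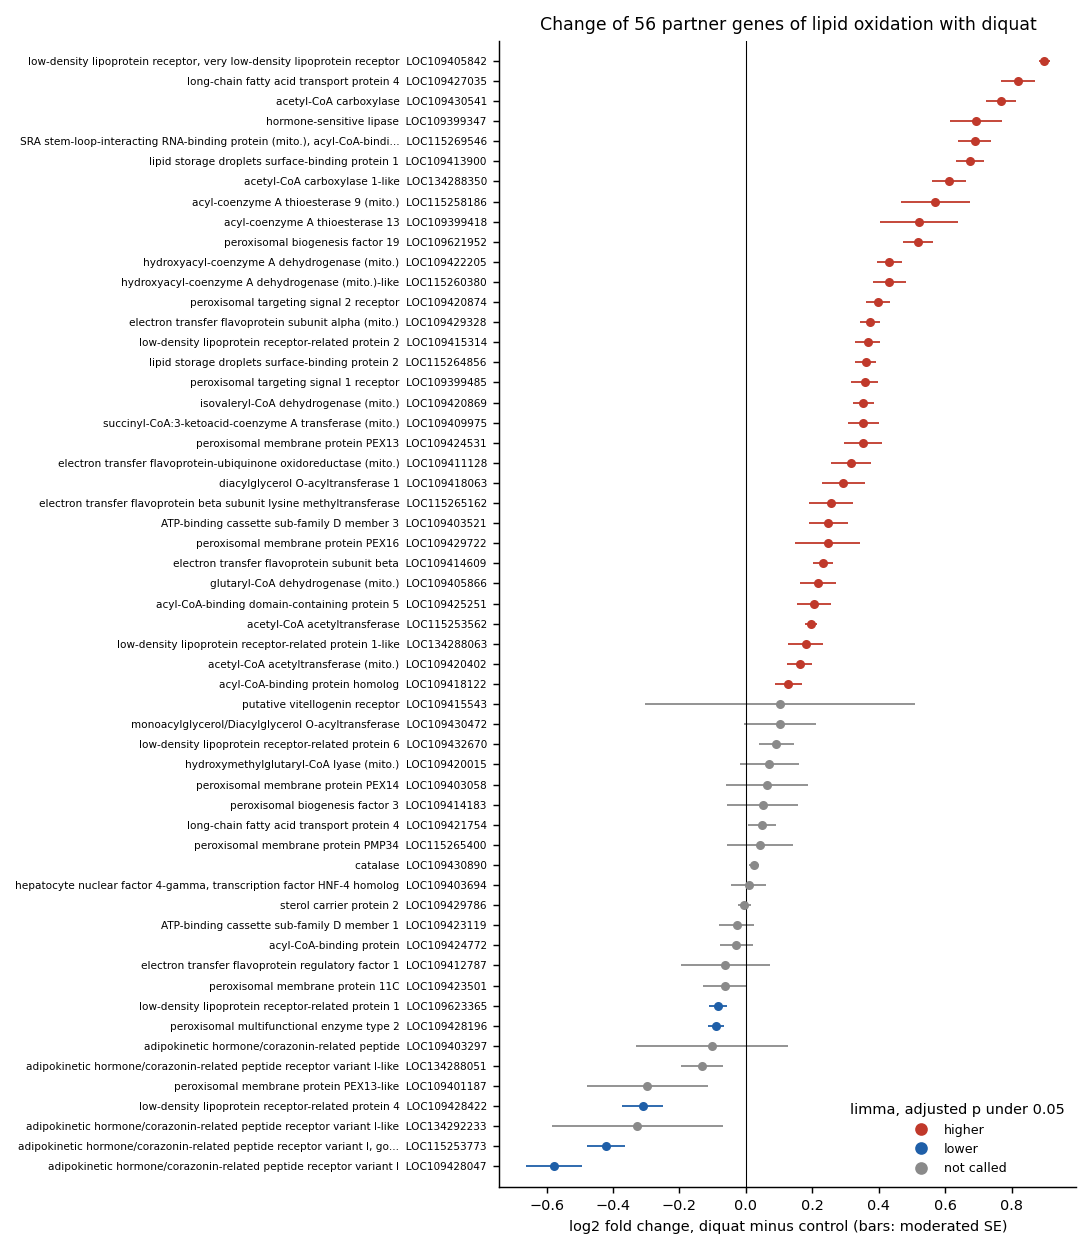
The log2 fold change of each of 56 partner genes, diquat minus control, is drawn with its moderated SE and ordered by size; colours give the limma call. Acetyl-CoA carboxylase, hormone-sensitive lipase and a lipid droplet protein are near the top, above 0.6. At the bottom are 2 receptor genes of adipokinetic hormone/corazonin-related peptide, both called lower. Further receptor genes of this name were not called (LOC134292233 at -0.33 and LOC134288051 at -0.13).

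Genes listed by name as tissue markers were also counted. Among all tested genes 26.7% were higher and 22.0% lower. Among those with at least the mean of the lowest lipid gene the shares were 41.0% and 30.1%. The lists for muscle (45% and 30%) and gut (40.3% and 23.4%) lay near these shares. All 8 hexamerin genes, storage proteins made by the fat body, were detected. Of them 1 rose and 4 fell, and their summed level was 977581 to 981784 normalized counts in controls and 814297 to 816239 with diquat. Of 20 tested genes listed for muscle by name part (myosin heavy chain, troponin and tropomyosin), 9 rose and 6 fell. The summed level of the 23 listed went from 576758 to 580026 in controls to 749104 to 752092 with diquat. Cuticle protein genes of the epidermis fell in 126 of 149 tested and rose in 5, with sums of 625544 to 630423 in controls and 374564 to 374866 with diquat, and 3 of 193 listed were at 0 in every library. Genes listed for the gut had trypsin or peritrophin anywhere in the name, a pattern that also takes chymotrypsins. They rose in 31 and fell in 18 of 77, and their sum fell from between 389120.00 and 393753 to between 338527 and 342352. At 0 throughout were 5 of 109 listed. Neuronal markers fell in 6 of 8 tested, with sums of 8475 to 9037 in controls and 7796 to 7915 with diquat. The part of these tissue shifts in the changes of the lipid genes was not tested.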

How the data were processed

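The authors deposited a table of normalized counts (unit: signal), 1 column per library, per the file headers. Tools listed in the submitters' processing notes, without roles, are STAR 2.7.10a, fastp 0.12.4, bcl2fastq and DRAGEN. Not given in the sources used here are counter, genome build, strand setting and normalizing tool. All values (100%, tolerance 1e-06 of the multiple) were whole multiples of the smallest value of their library, so whole reads were recovered.

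Genes with a mean of at least 10 were tested on log2(value + 1) with limma 3.58.1 (R 4.3.3, mean trend, two-sided, Benjamini-Hochberg at 0.05 over 17992 genes). The log2(value + 1) scale understates changes of low genes, and SE are moderated. Alternatives included edgeR 4.0.16, which called 8829 genes against 8772 in limma, and DESeq2 1.42.0, with 7223. A simulation of diquat against control (17858 genes tested) returned calls for 49 of 50 genes at 4-fold and for 41 of 49 at 2-fold. It returned 31 of 49 at 1.5-fold, 19 of 48 at 1.25-fold, and 3 of 17662 unchanged genes. It gave every gene the same dispersion and changed few genes, so it does not measure power or error in these libraries.

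Members and lists were chosen with earlier results of these data known. The naming rule took, per role, the 3 genes with most counts and the 3 of smallest p, and any at 2-fold, with a mean of at least 50 for the latter conditions; it named 29 members, and per partner name the gene of smallest p, 24 in all (other partners were added after their values were seen). Its pattern for acyl-CoA dehydrogenases also caught hydroxyacyl-CoA dehydrogenases, here described with their own kind, which adds 1. The remaining 11 are given so that every member is accounted for. All 25320 gene IDs matched the AalbF5 table, used for neighbours, overlaps and span only; 1109 are on no chromosome there, and none of these is among the 41. Figures used Python 3.11.15 and matplotlib 3.10.9.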

Additional observations from a re-analysis of the deposited data

How the results depend on the processing

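Of the 31 called lipid genes, 16 kept direction and call under all 18 alternatives that could be fitted for them, 9 lost the call under a constant variance prior alone, and none changed sign. The value moved by over 1.5 times in 7 of the 31 under quantile normalization and in 9 with the span trend removed. Counts of lipid genes moved by over 1.5 times with a constant variance prior (14 higher, 2 lower), under quantile normalization (9 lower) and among genes without overlap (1 lower of 30). For partner genes they moved with a constant variance prior (20 higher, 2 lower), under quantile normalization (8 lower), with the span trend removed (2 lower) and without overlap (20 higher and 2 lower of 35). With only non-overlapping genes tested, 3027 of all genes were higher and 1935 lower of 10471. Calls higher made up 54.8% of all calls, against 61.7% with the span trend removed and 61.0% without overlap. Leaving out 1 library gave 22 to 26 higher and 4 to 6 lower lipid genes, 27 to 33 higher and 3 to 5 lower partner genes, and 3748 to 4661 higher and 3085 to 3678 lower genes in all.

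Across the 41 lipid and 56 partner genes, values changed sign as follows. With the span trend removed they did so for LOC109417172 (0.13), LOC109413575 (-0.0166), LOC109399517 (0.0091), LOC109420015 (-0.0260), LOC109423119 (0.1286, called higher), LOC109412787 (0.0151), LOC109623365 (0.2786, called lower before and higher after), LOC109414183 (-0.1158) and sterol carrier protein 2 (LOC109429786, 0.0116). Leaving out 1 library gave LOC109402823 values from -0.0127 to 0.0074 (above 0 without control replicate 1, and 0.0031 without diquat replicate 2), and without diquat replicate 2 it turned LOC109400349 (range -0.3317 to 0.0230) and LOC109429786 (range -0.0124 to 0.0025). Quantile normalization turned LOC109420015 (-0.0131), LOC109430890 (-0.1668), LOC109414183 (-0.0270), LOC115265400 (-0.0406) and acetyl-CoA acetyltransferase (LOC115253562, from 0.20 to -0.0032). For the HNF-4 homolog (LOC109403694, 0.01) values were -0.0006 at equal totals, -0.0099 under quantile normalization, -0.0464 to 0.0639 with 1 library left out and -0.0045 in DESeq2. Ranges with 1 library left out also crossed 0 for uncalled partner genes: LOC109403058 (-0.0812 to 0.2073), LOC109403297 (-0.3075 to 0.1027), LOC109412787 (-0.1916 to 0.0664), LOC109414183 (-0.0749 to 0.1755), LOC109423119 (-0.1082 to 0.0521), LOC109423501 (-0.1513 to 0.0227), LOC109424772 (-0.0721 to 0.0131) and LOC115265400 (-0.0244 to 0.1093). The cause of these changes was not tested.

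With the replicate number as a block, 26 lipid genes rose and 6 fell, and 4935 of all genes rose and 4121 fell. Same-numbered libraries did not deviate together (correlation 0.012 across 17992 genes). With 2 libraries per group this cannot show whether the samples were paired, since a weak pairing could go unseen. Depth limits the least counted lipid genes, with 158 reads or more per library.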
